A study of Schizosaccharomyces pombe with 88 samples.

Results

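The genes described here are 16 protein-coding genes of fission yeast that carry only a systematic identifier, out of 759 such genes among 4815 genes measured under a single name. They were chosen by 1 time point: at 160 min the response to hydroxyurea (HU), averaged over wild type (WT) and chk1 cells, exceeded that of rad3 and cds1 cells by at least 0.5 on the log2 scale, and the rad3 and cds1 mean lay below 0.4. The working description of these genes, raised by HU only where the checkpoint is intact, held for few of them. At 160 min 3 of the 16 (SPBC1271.07C, SPAC56E4.03 and SPAC977.14C) were at least 0.4 higher with HU in both chk1 and WT, whereas 15 had a rad3 and cds1 mean below 0. They are therefore called the unnamed genes with a higher mean HU response in WT and chk1 than in rad3 and cds1. The name holds for these means and not for every single strain. For SPAC17H9.18C the HU difference at 160 min was -0.66 in WT and -0.46 in cds1.

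HU starves cells of deoxynucleotides by inhibiting ribonucleotide reductase, so that replication forks stall. In fission yeast the kinase Rad3, a relative of human ATR, senses stalled forks and activates the effector kinase Cds1, which keeps MBF, the transcription factor of the G1/S genes, active and protects the forks. Chk1 is the corresponding effector after DNA damage and acts mainly in G2.

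The groups were the mutants rad3, cds1 and chk1 and WT, each grown with 8 mM HU or untreated, and each begun from small early G2 cells collected by elutriation. Samples were taken at 0 min and in both arms at 40, 80, 120, 160 and 200 min, which gave 44 conditions with 2 array repeats each. The labels give neither the mutant alleles nor replicate cultures, and the series text calls the repeats technical. Repeats were averaged before the main tests, and no replicate cultures enter them. P-values of the main HU tests therefore measure only the spread between paired strains (rad3 with cds1, WT with chk1) at the same time. Most of their residual degrees of freedom come from 40 and 80 min, since at 120 and 200 min only rad3 and cds1 form a pair. P-values of the untreated tests measure only the spread of strains about a shared course. Strain and culture cannot be told apart. Each value is a log2 ratio of a sample over RNA of an asynchronous untreated WT culture, the same on every array.

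Some arrays went against their labels. The rad3 gene had a median log2 ratio of -2.64 on rad3 arrays and -0.47 on WT arrays, and the cds1 gene -2.92 on cds1 arrays and 0.36 on WT arrays. The chk1 gene had a median of -1.18 on chk1 arrays and -0.28 on WT arrays, but with HU at 160 min it stood at -0.53 on the arrays labelled chk1 and -0.83 on WT arrays. The arrays labelled chk1 at 120 min (both arms) and with HU at 200 min matched WT arrays (SD of the difference over probes 0.0019 to 0.18, against 0.24 or more for other strain pairs) and were left out of every test. The repeats of HU at 160 min labelled chk1 shared 77.1% of their values exactly. With WT alone in place of WT and chk1 the rule found 14 genes, 10 of them among the 16, while with chk1 alone it found 31, all 16 among them.

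None of the 16 genes has a name in the RefSeq gene table of assembly ASM294v3, which lists all of them as protein coding, and no role is assigned to them here. Of these genes 10 lie on chromosome I, 4 on chromosome II and 2 on chromosome III. SPAC1039.01 and SPAC1039.02 are neighbours with no other protein-coding gene between them. SPAC17H9.18C is next to cdt2, an MBF target whose product is a substrate receptor of a ubiquitin ligase, and SPAC27D7.11C is next to SPAC27D7.09C. SPCC569.06 lies 5 protein-coding genes from a chromosome end and SPAC977.14C 21. None of the 16 stands in the lists of MBF targets, core histones, environmental stress genes or heat shock chaperones used below.

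The values that chose the genes are a description and carry no test. The rule difference, WT and chk1 minus rad3 and cds1, ran from 0.50 to 1.08 with a median of 0.60, against a median of -0.041 over all genes. In most of the 16 it came from the mutant side. The median HU difference (HU minus untreated) was -0.65 for the rad3 and cds1 mean and -0.045 for the chk1 and WT mean, while over all genes these medians were 0.019 and -0.0080. In 13 of 16 genes the rad3 and cds1 mean lay further from 0 than the chk1 and WT mean, and 12 genes were below 0 in both rad3 and cds1. In chk1 and WT, 6 genes were above 0 in both strains, 5 below 0 in both and 5 of opposite sign.

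The 160 min HU differences of the genes with the widest gaps show the pattern. SPAC1039.02 had -1.12 in rad3, -1.34 in cds1, -0.11 in chk1 and -0.20 in WT. SPCC330.07C had -1.41 in rad3, -1.50 in cds1, -0.76 in chk1 and -0.64 in WT, so that it lay below its untreated level in all 4 strains. SPAC27D7.11C had -1.28 in rad3, -1.30 in cds1, -0.58 in chk1 and -0.35 in WT, again negative throughout. SPBC1271.07C was of the other kind, with 0.01 in rad3, -0.03 in cds1, 0.73 in chk1 and 0.74 in WT. SPAC56E4.03 resembled it, with 0.11 in rad3, -0.17 in cds1, 0.53 in chk1 and 0.53 in WT.

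At 160 min the level with HU was lower in rad3 and cds1 than in chk1 and WT in 15 of 16 genes. The untreated level was lower in rad3 and cds1 in 9 genes, which narrows the rule difference, and higher in the other 7, which widens it. SPAC977.14C was the exception with HU: its HU level was 0.54 in cds1 and -0.01 on the arrays labelled chk1, while the untreated level was -0.08 in cds1 and -0.92 in chk1, the lowest of the 4 strains.

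**Figure D1:**
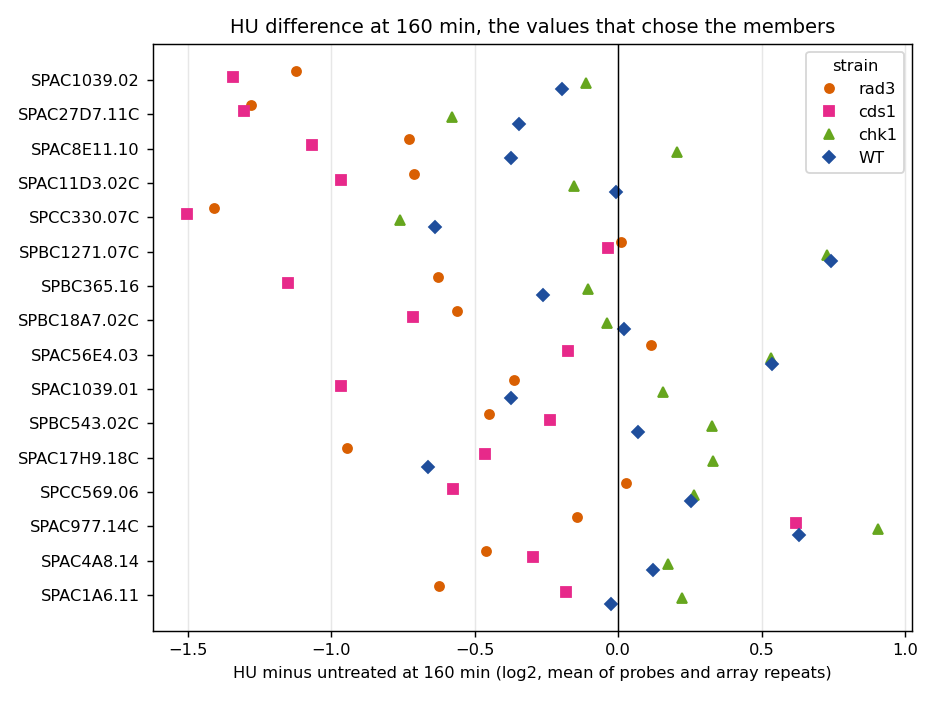
The HU difference at 160 min (HU minus untreated, log2, mean of probes and of 2 array repeats; x axis) of the 16 genes in order of the rule difference, with 1 symbol for each strain. Most rad3 and cds1 points lie left of 0, and only SPBC1271.07C, SPAC56E4.03 and SPAC977.14C have both the chk1 and the WT point at 0.4 or more.

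Just inside the limit on the rule difference stood SPAC1A6.11 at 0.50, SPAC4A8.14 at 0.53 and SPAC977.14C at 0.53. Just outside stood SPBC1861.05 at 0.49, SPBC887.17 at 0.44 and SPBC32F12.12C at 0.44. On the limit of 0.4 for the rad3 and cds1 mean, the nearest inside were SPAC977.14C at 0.24, SPBC1271.07C at -0.012 and SPAC56E4.03 at -0.030. The limit left out 2 genes, SPCPB1C11.02 at 0.69 and SPAC27D7.09C at 2.01. Both probes met the rule in 10 of the 15 genes with 2 probes. SPAC17H9.18C had 1 probe and no value on 16 arrays, and SPAC1A6.11 lacked a value on 1 array.

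Across the course the 16 genes parted from their untreated levels late. At 40 min the median HU difference was 0.16 in rad3, 0.0022 in cds1, -0.048 in chk1 and -0.030 in WT, and at 80 min it was 0.049 in rad3, -0.025 in cds1, -0.018 in chk1 and 0.0040 in WT. At 120 min it was -0.12 in rad3, -0.32 in cds1 and -0.028 in WT. At 200 min it was -0.58 in rad3, -0.44 in cds1 and 0.17 in WT, with 15 of 16 genes below 0 in rad3, 13 of 16 below 0 in cds1 and 4 of 16 below 0 in WT. Over all genes the 200 min medians were -0.030 in rad3, -0.016 in cds1 and -0.0089 in WT, and the share below 0 was not counted. The genes were chosen for a lower response in rad3 and cds1 at the time point before, in the same cultures. These counts are therefore not independent of the choice. The WT value of 3.25 for SPAC17H9.18C at 40 min, the highest of any gene there, rests on 1 untreated array at -4.16.

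**Figure D2:**
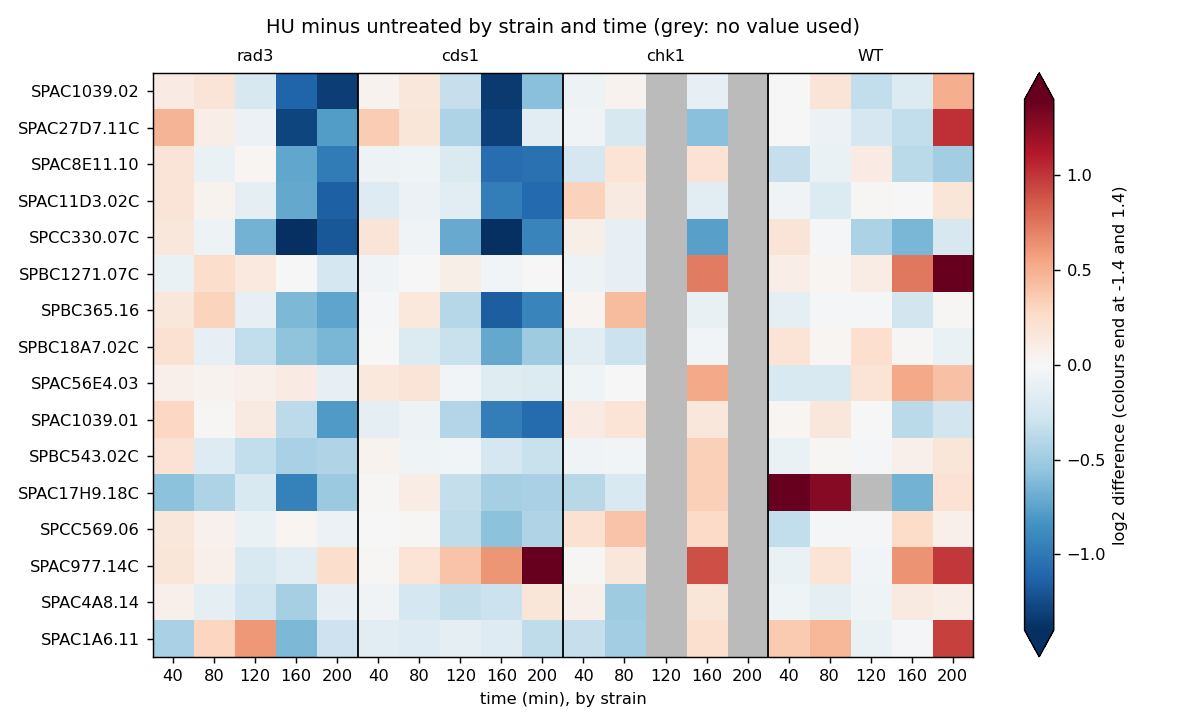
HU minus untreated (log2, colour scale ending at -1.4 and 1.4) for each of the 16 genes (rows) by strain and time (columns), grey where no value was used. The blue cells gather at 160 and 200 min in rad3 and cds1, and the red cells in WT at 200 min belong to SPBC1271.07C, SPAC27D7.11C, SPAC977.14C, SPAC1A6.11 and SPAC1039.02.

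Whether the strains differ was tested at times the rule did not use, in limma fits over all 4928 gene units with Benjamini-Hochberg adjustment and a threshold of 0.05. The measure was the mean of 120 and 200 min. In rad3 and cds1, 10 of the 16 genes passed, 9 lower with HU and 1 higher, where 31.7% of all units were called, 16.8% lower and 15% higher. The median over the 16 was -0.37, against -0.011 over all units. In WT 2 of 15 genes with a value passed, SPBC1271.07C higher and SPCC330.07C lower, where 7.81% of all units were called, 4.04% higher and 3.78% lower. The WT call of SPCC330.07C (-0.33 ± 0.09 SE, adjusted p = 0.0401) was lost under 7 other settings of the same fit, among them quantile normalization (adjusted p = 0.0836). With arrays as samples and the repeat number of each strain as a block, a fit that treats technical repeats as samples, 6 genes were called in WT, 4 higher and 2 lower, among 1418 units. In bulk RNA, fewer cells with a transcript and less transcript per cell cannot be told apart.

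The direct test of the strains, rad3 and cds1 minus WT in the HU difference at 120 and 200 min, called 1 of 15 genes, SPBC1271.07C, where 0.345% of all units were called, 0.304% lower and 0.0406% higher. All 15 estimates were below 0, from -0.84 to -0.012, with a median of -0.48 against 0.0023 over all units. The genes were chosen for this direction at a time between these, in the same cultures. Their shared sign is therefore not independent of the choice, and the share of all units below 0 was not counted. At an unadjusted p under 0.05 there were 11 of the 15 genes and 620 of all 4927 units tested. With arrays as samples and the repeat block within strains, 11 genes were called, all lower, among 629 units. Early in the course, at 40 and 80 min, the test of rad3 and cds1 minus chk1 and WT called 0 of 16 genes and 0% of all units, with 2 of the 16 and 322 units at an unadjusted p under 0.05.

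Split by time, a division made after the data were seen, the direct test called 0 of 15 genes at 120 min, where 0.0203% of units were called, with 1 of the 15 genes and 262 units at an unadjusted p under 0.05. At 200 min it called 5 of 16, all lower in rad3 and cds1 (SPBC1271.07C, SPAC27D7.11C, SPAC1039.02, SPAC11D3.02C and SPCC330.07C), where 1.36% of units were called, 0.873% lower and 0.487% higher. In rad3 and cds1 alone, 1 of 16 genes passed at 120 min (0.771% of units, 0.345% lower and 0.426% higher) and 10 of 16 at 200 min, 9 lower and 1 higher (37.7% of units, 20% lower and 17.7% higher). In WT alone, 0 of 15 passed at 120 min (0.162% of units, 0.101% higher and 0.0609% lower) with 1 of 15 at an unadjusted p under 0.05, and 4 of 16 at 200 min, 3 higher and 1 lower (13.1% of units, 6.33% higher and 6.76% lower). The WT difference of SPCC330.07C was -0.44 at 120 min and -0.22 at 200 min, and neither passed alone. The 200 min samples came from the same cultures as those of 160 min.

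**Figure D3:**
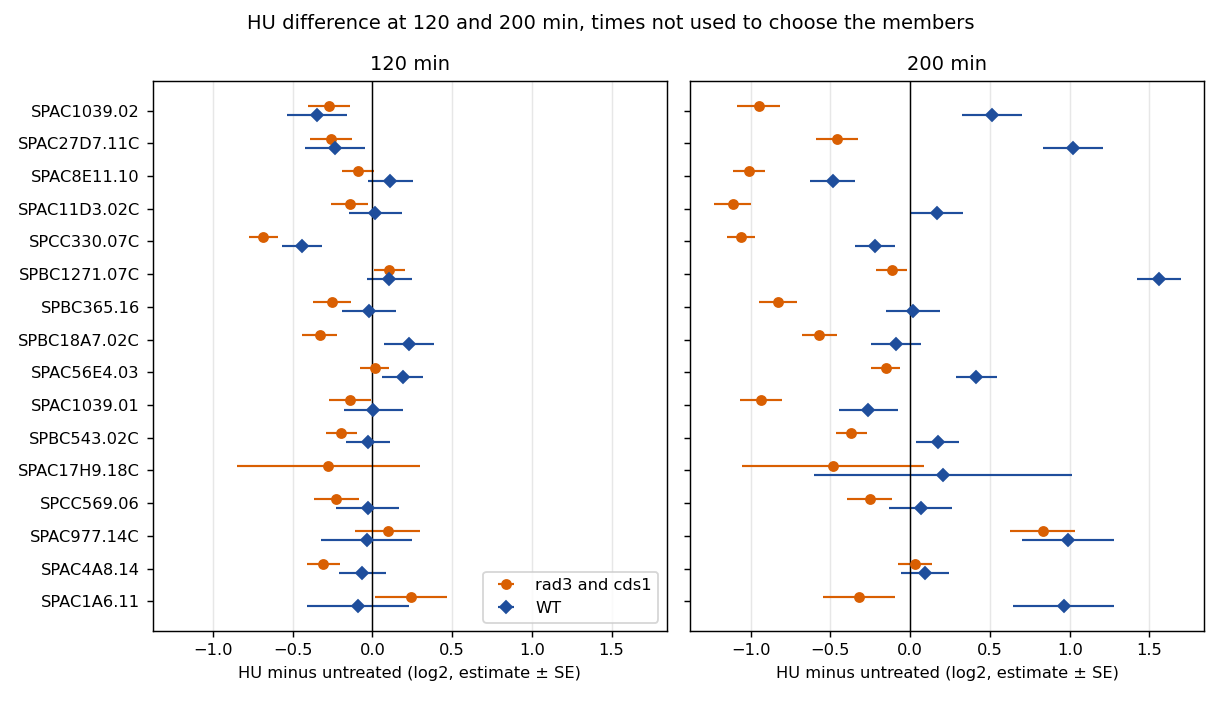
HU minus untreated (log2, fitted estimate with SE as bars) of the 16 genes for rad3 and cds1 together and for WT, at 120 min (left) and 200 min (right). At 120 min the widest gap is that of SPBC18A7.02C, with -0.33 in rad3 and cds1 and 0.23 in WT, and SPAC17H9.18C has no WT estimate. At 200 min SPBC1271.07C has the widest gap, with -0.12 in rad3 and cds1 and 1.56 in WT.

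SPBC1271.07C rose with HU in WT and stayed near its untreated level in rad3 and cds1, and it had the largest strain difference of the 16 at 200 min. With HU at 200 min its log2 ratios were -0.23 and -0.13 in rad3, -0.39 and -0.41 in cds1, and 1.27 and 1.30 in WT. Untreated at 200 min they were 0.10 and 0.03 in rad3, -0.41 and -0.41 in cds1, and -0.11 and -0.44 in WT. The HU and untreated arrays of WT did not overlap. Those of rad3 and cds1 as a pair did, with HU differences of -0.24 in rad3 and 0.01 in cds1. In rad3 by itself both HU arrays lay below both untreated ones. Here and for the genes below, the arrays are technical repeats, and such separation was not counted over all units.

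In WT the HU difference of SPBC1271.07C over 120 and 200 min was 0.83 ± 0.10 (SE; adjusted p = 0.000435), made up of 0.11 at 120 min and 1.56 at 200 min. In rad3 and cds1 it was -0.0048 ± 0.07 (SE; adjusted p = 0.969). The strain difference was -0.84 ± 0.12 (SE; adjusted p = 0.00698) over 120 and 200 min and -1.68 ± 0.17 (SE; adjusted p = 0.000268) at 200 min alone. The call over 120 and 200 min was lost without replicate 2 (-0.71, adjusted p = 0.114), with quantile normalization (-0.64, adjusted p = 0.117) and with the first probe alone (-0.84, adjusted p = 0.0875). The single arrays for HU at 160 min were -0.04 and -0.14 in rad3, -0.51 and -0.51 in cds1, 0.48 and 0.48 on those labelled chk1, and 0.67 and 0.32 in WT.

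Of the other genes with a strain difference at 200 min, SPAC27D7.11C also rose with HU in WT. Its ratios with HU were 1.25 and 1.50 in rad3, 0.88 and 0.92 in cds1, and 2.58 and 2.84 in WT. Untreated they were 2.20 and 2.11 in rad3, 1.02 and 1.08 in cds1, and 1.48 and 1.89 in WT. The arms of WT were apart and those of rad3 and cds1 as a pair overlapped, with HU differences of -0.78 in rad3 and -0.15 in cds1.

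The WT difference of SPAC27D7.11C at 200 min was 1.02 ± 0.19 (SE; adjusted p = 0.00359) and that in rad3 and cds1 was -0.46 ± 0.13 (SE; adjusted p = 0.0151). From 120 to 200 min its level with HU rose in both mutants, from 1.05 to 1.38 in rad3 and from 0.08 to 0.90 in cds1. The strain difference was -1.48 ± 0.23 (SE; adjusted p = 0.00726). At 160 min its WT difference, one of the values used for the choice, had been -0.35.

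SPAC1039.02 climbed late in the untreated course, and at 200 min HU cells of rad3 and cds1 stood lower than untreated ones. Untreated, its mean over strains was -1.53 ± 0.35 at 80 min and -0.15 ± 0.15 at 200 min (SD, n = 4 strains). With HU at 200 min the arrays were -1.43 and -1.59 in rad3, -0.71 and -0.70 in cds1, and 0.44 and 0.64 in WT. Untreated at 200 min they were -0.13 and -0.24 in rad3, -0.16 and -0.09 in cds1, and 0.00 and 0.06 in WT. HU and untreated arrays did not overlap in either set of strains, with HU lower in rad3 and cds1 and higher in WT.

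The HU difference of SPAC1039.02 in rad3 and cds1 at 200 min was -0.95 ± 0.13 (SE; adjusted p = 0.000176) and the WT difference of 0.51 ± 0.19 (SE) did not pass. The single differences at 200 min were -1.32 in rad3 and -0.58 in cds1. The SE is pooled over the times of the fit and does not give their spread at 200 min. In rad3 the level with HU was -1.63 at 40 min and -1.51 at 200 min, while the untreated level climbed from -1.74 to -0.19. In cds1 the level with HU rose from -1.61 at 160 min to -0.71 at 200 min. The strain difference was -1.46 ± 0.23 (SE; adjusted p = 0.0080). Its neighbour SPAC1039.01 was also lower with HU than untreated in rad3 and cds1 at 200 min (-0.93 ± 0.13 SE, adjusted p = 0.000181). The strain difference of SPAC1039.01, -0.67 ± 0.23 (SE), did not pass (adjusted p = 0.151).

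SPAC11D3.02C fell in rad3 and cds1 and had no WT difference that passed. With HU at 200 min it had -1.63 and -1.35 in rad3, -1.05 and -1.08 in cds1, and 0.10 and -0.13 in WT. Untreated it had -0.43 and -0.26 in rad3, -0.03 and 0.07 in cds1, and -0.12 and -0.24 in WT. Every HU array of rad3 and cds1 lay below every untreated one, and the arms of WT overlapped. The fall in rad3 and cds1 was -1.11 ± 0.12 (SE; adjusted p = 2.22e-05) and the strain difference -1.28 ± 0.20 (SE; adjusted p = 0.00849).

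SPCC330.07C was the only gene of the 16 called at 120 min in rad3 and cds1, where it was lower (-0.68 ± 0.09 SE, adjusted p = 0.00599). With HU at 200 min it had -1.58 and -1.39 in rad3, -1.03 and -1.0 in cds1, and -0.50 and -0.34 in WT. Untreated it had -0.50 and -0.09 in rad3, -0.14 and -0.03 in cds1, and -0.03 and -0.36 in WT. The WT arms overlapped at 200 min and those of rad3 and cds1 did not. The fall in rad3 and cds1 was -1.06 ± 0.09 (SE; adjusted p = 3.44e-06), and the strain difference was -0.84 ± 0.15 (SE; adjusted p = 0.0199).

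**Figure D4:**
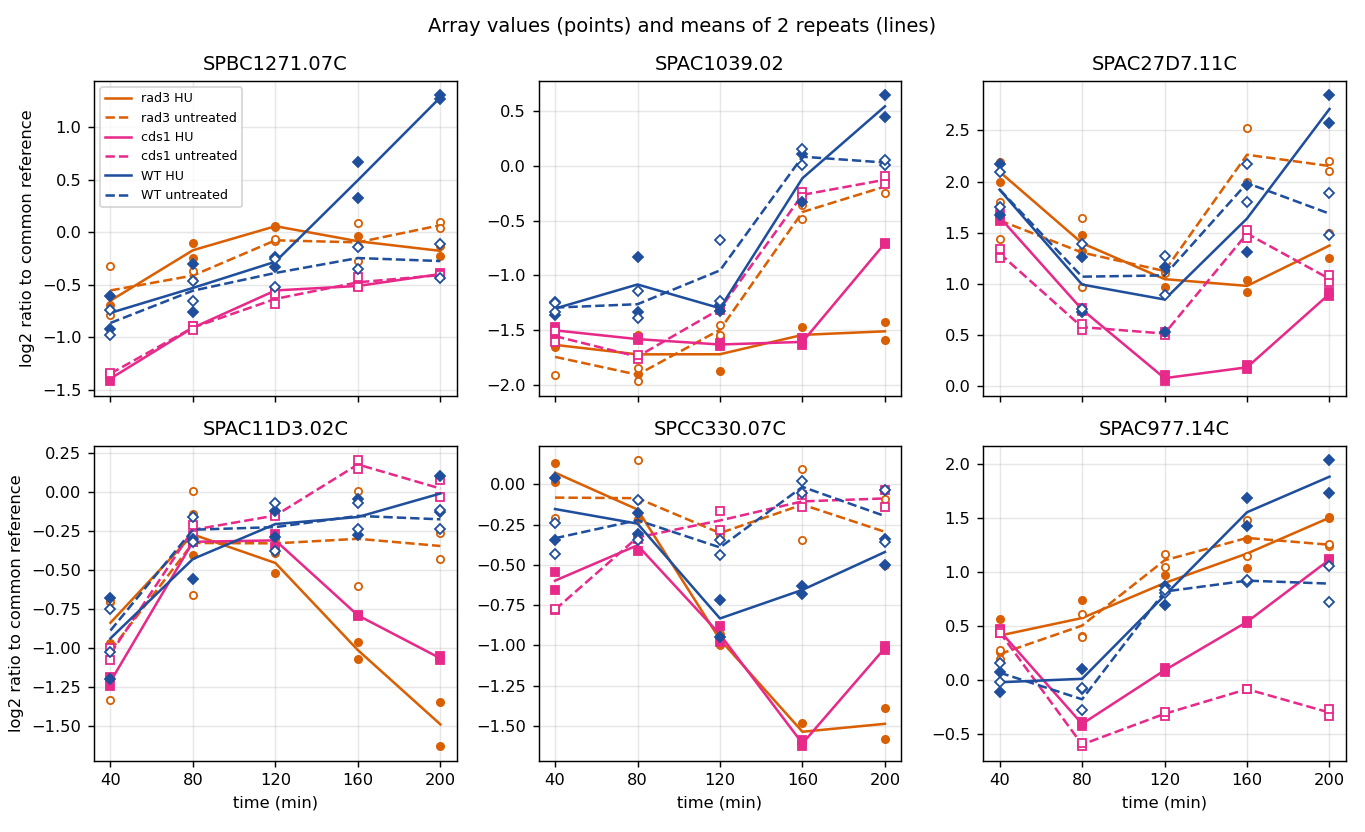
Log2 ratios to the common reference by time for the 5 genes with a strain difference at 200 min and for SPAC977.14C, with array values as points and means of 2 repeats as lines (HU solid and filled, untreated dashed and open; chk1 not drawn). SPBC1271.07C climbs to 1.27 and 1.30 in WT with HU, SPAC1039.02 stays low with HU in rad3 at 160 and 200 min and in cds1 at 160 min, and SPAC11D3.02C and SPCC330.07C fall with HU in rad3 and cds1.

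SPAC8E11.10 fell in both sets of strains. With HU at 200 min it had -1.68 and -1.71 in rad3, -0.96 and -0.92 in cds1, and -0.88 and -0.89 in WT. Untreated it had -0.69 and -0.75 in rad3, 0.10 and 0.11 in cds1, and -0.23 and -0.57 in WT. Its fall was -1.01 ± 0.10 (SE; adjusted p = 1.43e-05) in rad3 and cds1 and -0.49 ± 0.14 (SE; adjusted p = 0.0414) in WT, and the strain difference of -0.53 ± 0.18 (SE) did not pass (adjusted p = 0.148).

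SPAC977.14C ran against the others in that HU raised it in rad3 and cds1 as a pair. With HU at 200 min it had 1.50 and 1.50 in rad3, 1.11 and 1.12 in cds1, and 1.73 and 2.03 in WT. Untreated it had 1.24 and 1.26 in rad3, -0.33 and -0.26 in cds1, and 1.06 and 0.73 in WT. The rise was 0.83 ± 0.20 (SE; adjusted p = 0.00659) in rad3 and cds1 and 0.99 ± 0.29 (SE; adjusted p = 0.0405) in WT, with a strain difference of -0.16 ± 0.35 (SE; adjusted p = 0.864). The mutant rise was mainly that of cds1 (1.41, against 0.25 in rad3), and over 120 and 200 min it was 0.46 ± 0.14 (SE; adjusted p = 0.0268) with cds1 and 0.020 (adjusted p = 0.909) without it. Its untreated level differed between strains, from -0.78 in chk1 to 1.25 in rad3 at 200 min.

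A further 3 genes fell in rad3 and cds1 at 200 min without a WT difference or a strain difference that passed. SPBC365.16 fell by 0.83 on the log2 scale, SPBC18A7.02C by 0.57 and SPBC543.02C by 0.37 (adjusted p = 0.00023, 0.00167 and 0.00891 in limma). In all 3, every HU array of rad3 and cds1 lay below every untreated one, and the WT arms overlapped. The arrays are technical repeats, and such separation was not counted over all units. Of all units 20% were called lower in rad3 and cds1 at 200 min.

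The other 5 genes passed no test of the HU difference at 200 min. SPAC56E4.03 had a strain difference of -0.57 ± 0.16 (SE; adjusted p = 0.0988), with -0.15 in rad3 and cds1 and 0.41 in WT. SPAC1A6.11 had -1.29 ± 0.39 (SE; adjusted p = 0.122), with WT repeats with HU as far apart as -0.08 and -0.84. SPAC17H9.18C had -0.69 ± 0.99 (SE), from a single HU array each in rad3 and WT. SPCC569.06, which falls outside the rule for named genes and is given to account for every gene, had -0.32 ± 0.24 (SE), and SPAC4A8.14 had -0.062 ± 0.18 (SE).

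Known gene groups give the setting for these values. As the mean of 120 and 200 min, 4 of 18 MBF targets were called higher with HU than untreated in rad3 and cds1 and 11 of 18 in WT. For core histone genes it was 6 of 9 in rad3 and cds1 and 8 of 9 in WT. Taken singly, 200 min gave 8 of 9 histone genes higher in rad3 and cds1 and 9 of 9 in WT. At 120 min 0 of 9 histone genes were called higher in either set, with medians of -0.12 in rad3 and cds1 and -0.56 in WT. The untreated level moved between these times. In WT the histone gene hta1 went from 1.25 to 1.67 with HU and from 1.93 to -1.38 untreated. In cds1 it went from 1.29 to -0.58 with HU and from 1.58 to -1.23 untreated. As the mean of both times, HU raised 14 of 19 heat shock chaperone genes in rad3 and cds1 and 5 of 19 in WT, with 1 lower in each. It raised 16 of 23 environmental stress genes in rad3 and cds1 and 10 of 23 in WT, again with 1 lower in each. Of all units, 15% were called higher in rad3 and cds1 and 4.04% in WT as the mean of both times. The WT test rests on 1 strain and has a larger SE, so these counts do not compare the strains. The direct strain test called 5 of 18 MBF targets and 3 of 9 core histones lower in rad3 and cds1, and 0 of 23 stress genes and 0 of 19 chaperones. At 200 min cdt2, the neighbour of SPAC17H9.18C, was raised by 0.70 ± 0.18 in rad3 and cds1 and by 2.41 ± 0.25 in WT (SE), with 1.22 in rad3 and 0.19 in cds1.

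The profiles over the 14 HU differences used in the tests are given as a description, over points that share strains and the common reference. SPBC1271.07C had a Pearson r of 0.76 with the mean of the core histones and of 0.60 with that of the MBF targets, and was the only gene of the 16 at or above 0.5 for MBF targets, where 7.53% of all genes were. For core histones 3 of the 16 were at or above 0.5, where 12.2% of all genes were, the other two being SPAC977.14C (0.62) and SPAC27D7.11C (0.51). In all, 8 of the 16 had an r of -0.5 or lower with the mean of the heat shock chaperones, where 23.7% of all genes did, led by SPAC1039.01 (-0.91), SPBC365.16 (-0.83), SPAC8E11.10 (-0.82), SPCC330.07C (-0.81) and SPAC11D3.02C (-0.77). SPAC977.14C lay at the other end with 0.81. For the environmental stress genes 6 of the 16 had an r of -0.5 or lower, where 24.2% of all genes did. The 16 genes were chosen for a lower HU response in rad3 and cds1, where HU raised most of these chaperone and stress genes late. The 14 differences include times next to the one used for the choice. The comparison with all genes is therefore not independent of the choice, and a link to these groups was not tested.

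Without HU, several of the 16 genes varied along the course. The moderated F test over 0, 40, 80, 120 and 200 min called 9 of 16, where 76.8% of all units were called, so the share among the 16 was below that of all units. SPAC27D7.11C had the widest range, 3.99 (adjusted p = 1.23e-11), followed by SPAC8E11.10 with 1.94 (adjusted p = 6.05e-10), SPAC11D3.02C with 1.58 (adjusted p = 7.25e-08), SPAC1039.02 with 1.38 (adjusted p = 7.90e-05) and SPBC1271.07C with 1.16 (adjusted p = 6.93e-05). The other 4 called genes ranged over 0.38 to 0.49.

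Much of this lay in the first sample after elutriation. At 0 min against 40 min 11 of 16 genes passed, 5 higher and 6 lower, where 66.6% of units were called, 29.7% higher and 36.9% lower. SPAC27D7.11C averaged 4.93 ± 0.44 at 0 min and 1.75 ± 0.37 at 40 min (SD, n = 4 strains), a difference of 3.18 ± 0.16 (SE; limma adjusted p = 7.69e-11). SPAC8E11.10 was the opposite, with -2.21 ± 0.39 at 0 min and -0.71 ± 0.44 at 40 min (SD, n = 4 strains; limma adjusted p = 5.90e-09). SPBC1271.07C (1.16) and SPAC1039.02 (0.86) were also higher at 0 min, and SPAC11D3.02C (-0.56) was lower.

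At 120 min, when the core histone genes, which are expressed in S phase, stood a median of 3.31 above 40 min, 4 of 16 genes differed from 40 min, where 22.6% of units were called, 10.7% higher and 11.9% lower. SPAC11D3.02C rose by 0.85 ± 0.15 (SE; adjusted p = 0.00076), SPBC1271.07C by 0.58 ± 0.17 (SE; adjusted p = 0.0259) and SPBC543.02C by 0.24 ± 0.08 (SE; adjusted p = 0.0423), and SPAC27D7.11C fell by 0.81 on the log2 scale (adjusted p = 0.00456). The count was 2 without rad3, 2 without cds1 and 1 without WT.

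**Figure D5:**
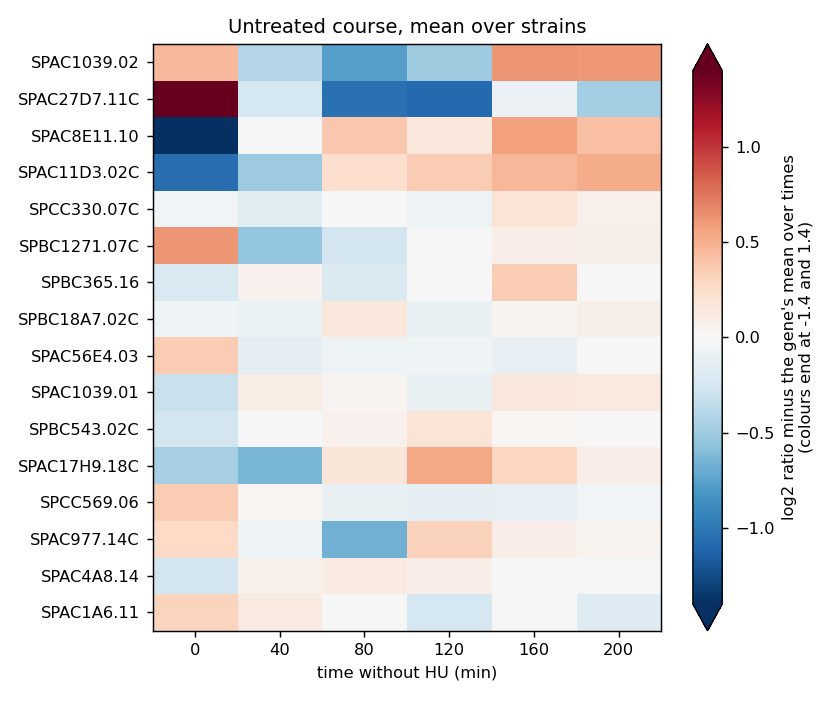
Untreated log2 ratio of each of the 16 genes by time, as the mean over strains minus the gene's own mean over times (colour scale ending at -1.4 and 1.4). SPAC27D7.11C is far above and SPAC8E11.10 and SPAC11D3.02C far below their own means at 0 min, and SPAC1039.02 is lowest at 80 min.

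Without HU the strains differed in 3 of the 16 genes, where 12.3% of units were called, 6.82% lower and 5.52% higher. All 3 were lower in the mean of rad3 and cds1 than in that of chk1 and WT. SPAC1039.02 differed by -0.58 ± 0.14 (SE; adjusted p = 0.0172), SPAC56E4.03 by -0.30 ± 0.07 (SE; adjusted p = 0.0134) and SPBC543.02C by -0.16 ± 0.05 (SE; adjusted p = 0.0426). For SPAC1039.02 chk1 stood apart at first, with 0.64 at 0 min and -0.08 at 40 min. At these times WT had -0.57 and -1.29, rad3 -0.62 and -1.74, and cds1 -0.66 and -1.55. At 80 min chk1 (-1.21) and WT (-1.26) both lay above rad3 (-1.91) and cds1 (-1.74). For SPAC56E4.03 the low untreated level was that of cds1, with -0.46 at 40 min and -0.42 at 120 min. In rad3 it was -0.01 and 0.08 at these times, near the 0.06 and 0.09 of WT. The number of genes called was 7 with arrays as samples and the repeat number of each strain as a block, where 1655 units were called. It was 0 without WT and ran from 0 to 9 when 1 set of array repeats was left out, so these calls changed with the arrays used.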

How the data were processed

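RNA was measured on 88 two-colour arrays, with the sample in Cy5 and RNA of asynchronous untreated WT cells as the shared reference in Cy3, per the labels. The deposited values are log2 ratios, sample over reference, as the dyes per the labels and the mutated genes show; the sources used here do not state background correction, normalization or centring. The table is 99.4% complete, and array medians ran from -0.231 to 0.0496. Probes with values on under 80% of arrays were left out (35 of 9858), and probes of a gene were averaged, named through the platform annotation (9632 probes with 1 symbol, 44 with several, 182 with none). A further 2 units with several symbols met the values of the rule and were not counted.

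Samples were grouped by array title, and repeats were averaged, because they are technical. Within WT the repeat numbers went together (r of repeat deviations between conditions 0.440 to 0.813 over 55 pairs). The r was above 0.1 in 52 of 55 pairs in rad3, 32 in cds1 and 3 in chk1. Since the labels name no shared batch, a fit with the repeat number of each strain as a block was added after the data were seen. limma 3.58.1 in R 4.3.3 (lmFit, eBayes) fitted 14 differences of HU minus untreated at 40, 80, 120 and 200 min (6 residual degrees of freedom; WT stands alone at 120 and 200 min, with the spread taken from strain pairs) and 19 untreated condition means with strain and time (11). Values of 160 min, which chose the genes, entered no test, nor did the 6 arrays that match WT. P-values were Benjamini-Hochberg adjusted over all 4928 units at 0.05. The fits were tested on simulated data with independent noise on each array. The noise was set at a fixed part of each gene's SD, and the HU change was made equal at 120 and 200 min. Of genes changed by 1 on the log2 scale, the WT test recovered 97%, with 22 false calls among unchanged genes. The strain difference recovered 98%, with 10 false calls. The real repeats are technical, so the simulated spread differs from that of the data. The number of arrays limits the precision.

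The genes, lists and tests were chosen with earlier results of these data known. Named genes were the 12 with the largest rule difference, called genes with the largest change, those nearest the limits of the rule and neighbours of listed genes. Sequences were not used here.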

Additional observations from a re-analysis of the deposited data

Results flagged for a closer look

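Each of the following is a difference between strains in the HU response that passed its own test in limma (rad3 and cds1 minus WT, Benjamini-Hochberg adjusted over all units). Over 120 and 200 min SPBC1271.07C differed by -0.84 ± 0.12 (SE; adjusted p = 0.00698), the only one of the 15 genes with a value to pass. The 200 min values were taken after the data were seen. There SPBC1271.07C differed by -1.68 ± 0.17 (SE; adjusted p = 0.000268), SPAC27D7.11C by -1.48 ± 0.23 (SE; adjusted p = 0.00726), SPAC1039.02 by -1.46 ± 0.23 (SE; adjusted p = 0.0080), SPAC11D3.02C by -1.28 ± 0.20 (SE; adjusted p = 0.00849) and SPCC330.07C by -0.84 ± 0.15 (SE; adjusted p = 0.0199). WT stands alone at 200 min, so its spread is taken from the pairs of strains. All of these genes were chosen for a lower response in rad3 and cds1 at a time between 120 and 200 min, in the same cultures. Their differences are therefore not independent of the choice. The call of SPBC1271.07C over 120 and 200 min was lost with quantile normalization, with the first probe alone and with a set of array repeats left out.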

How the results depend on the processing

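For the 31 single-gene calls, 360 of 431 values under the settings other than those added later kept direction and side of the threshold, and 71 kept the direction only. Of 57 values under settings added after the data were seen (120 min alone, 200 min alone and the repeat block within strains), 44 kept both, 12 kept the direction only and 1 reversed, the strain difference of SPBC1271.07C at 120 min alone (0.000516). The cause of the changes below was not tested. Repeat numbers went together in WT, not across strains (r over all conditions -0.823 to 0.968, median 0.00692). With arrays as samples and the repeat block within strains, 6 of the 16 genes were called in WT over 120 and 200 min, 11 in the strain difference and 7 in the untreated strain difference. With 1 block for all strains, 4 of the 16 genes were called in WT over 120 and 200 min (2 without the block), 8 in the strain difference (1 without) and 6 in the untreated strain difference (3 without). Leaving out 1 repeat gave 1 to 2 calls in WT, 7 to 12 in rad3 and cds1, 0 to 1 in the strain difference, 2 to 4 at 120 against 40 min untreated, 0 to 9 in the untreated strain difference, and 10 to 36 genes meeting the rule. Calls in WT were 1 with quantile normalization, with trend and robust fitting, with the first probe alone and without chk1, 6 once the chk1 arrays that match WT were included, 0 at 120 min alone and 4 at 200 min alone. Calls in the strain difference were 0 with quantile normalization, with the first probe alone and at 120 min alone, 2 with trend and robust fitting, 3 with 160 min kept and without cds1, 8 with those arrays included and 5 at 200 min alone. In rad3 and cds1, 120 min alone gave 1 call against 10. The early difference gave 1 call without chk1 and 0 otherwise. Untreated, 0 against 40 min gave 5 calls with quantile normalization against 11. Untreated, 120 against 40 min gave 2 calls without rad3, 2 without cds1 and 1 without WT. The untreated strain difference gave 5 calls without rad3, 6 without chk1 and 0 without WT. The rule found 29 genes at a difference of 0.4, 8 at 0.6 and 31 with chk1 alone, against 16. Leaving out WT gives no value for the WT and late strain tests.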
